A study of Mus musculus with 60 samples.

Results

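The 10 genes described here act in the uptake, storage and hormonal control of iron in the liver, namely Tfrc, Tfr2, Trf, Hamp, Hamp2, Hfe, Fth1, Ftl1, Slc40a1 and Bmp6. They were taken by symbol from the 38204 genes of the deposited table, where they had 61 transcripts in all, and a gene's value is the sum of the RPKM (reads per kilobase of transcript, per fixed number of mapped reads) of its transcripts. Left liver lobes came from 60 male mice of the inbred strain C3H/HeNCrl, which were 8 to 10 weeks old when exposed and for which no engineered allele is named in the labels. Of the libraries, 15 came from non-irradiated or sham-irradiated control mice, 15 from mice given 0.2 Gy of 56Fe ions, 15 from mice given 0.2 Gy of 16O ions and 15 from mice given 0.2 Gy of 28Si ions. Each group was sampled at 1, 2, 4, 9 and 12 months after exposure with 3 mice per time, and the 3 controls of a time served the comparisons with all 3 ions. Each library is from 1 mouse, so a p-value measures the spread between separate mice.

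Liver cells take up transferrin-bound iron through Tfrc, keep it in ferritin shells built of the Fth1 and Ftl1 chains, and release it through the exporter Slc40a1, called ferroportin. Hepatocytes secrete hepcidin, the product of Hamp, which binds ferroportin and causes its removal from cell surfaces, and they raise Hamp when endothelial Bmp6, the receptor-like Tfr2 and the membrane protein Hfe signal that iron is plentiful, or when interleukin 6 acts through STAT3 in inflammation. The mouse genome carries a neighbouring copy, Hamp2, whose role in iron balance is less certain.

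A separate control acts on the mRNA itself, because iron regulatory proteins bind short hairpins called iron responsive elements, protecting Tfrc mRNA and holding back translation of ferritin and ferroportin mRNA when iron is scarce. A search of the main transcripts of the 10 genes for a CAGTGN loop (N being any base) closed by 5 base pairs and a bulged C found such elements in 4 genes. They are printed, with the loop in capitals, because they place Tfrc with 4 elements in its 3′ untranslated region apart from Fth1, Ftl1 and Slc40a1 with 1 element each in the 5′ untranslated region. Coordinates are those of GRCm38, Tfrc and Fth1 lying on the plus strand and Ftl1 and Slc40a1 on the minus strand.
Tfrc element 1, chr16:32631220-32631246: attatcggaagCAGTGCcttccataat
Tfrc element 2, chr16:32631599-32631625: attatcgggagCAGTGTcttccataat
Tfrc element 3, chr16:32631664-32631690: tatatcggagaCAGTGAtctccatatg
Tfrc element 4, chr16:32631711-32631737: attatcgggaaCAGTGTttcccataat
Fth1 element 1, chr19:9982733-9982759: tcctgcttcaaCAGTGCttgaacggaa
Ftl1 element 1, chr7:45459780-45459806: tcttgcttcaaCAGTGTttgaacggaa
Slc40a1 element 1, chr1:45925466-45925492: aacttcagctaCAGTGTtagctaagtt
Of 21877 protein-coding genes searched in the same way, 30 (0.137%) had such an element. The binding of these elements changes the stability of Tfrc mRNA but the translation of the other 3, so the RNA levels given here cannot show control of the latter kind.

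The promoters of the hepcidin genes are shown because a difference from control after an ion was called for Hamp2 but not for Hamp. The levels of Hamp and Hamp2 were not tested against each other. The part of the promoters in these levels was not tested. The 120 bases before each start site (RefSeq, GRCm38.p6, minus strand) are written with GGCGCC, the core of the BMP responsive element, and TTCTTGGAA, a STAT site, in capitals.
Hamp, chr7:30944030-30944149: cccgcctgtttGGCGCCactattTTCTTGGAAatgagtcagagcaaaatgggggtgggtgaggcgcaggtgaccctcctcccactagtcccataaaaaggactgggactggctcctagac
Hamp2, chr7:30924182-30924301: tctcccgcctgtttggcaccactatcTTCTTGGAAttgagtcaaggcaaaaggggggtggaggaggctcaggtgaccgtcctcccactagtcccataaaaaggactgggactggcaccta
Both stretches held the STAT site, and GGCGCC stood only in that of Hamp. Aligned with each other they had 106 of 123 columns identical (86.2%), with 11 substitutions, of which G15A (Hamp base, position counted from the first printed Hamp base, Hamp2 base) fell within the 6 letters of GGCGCC. Searched on both strands over the 250 bases before the start site, GGCGCC stood in 9.59% and TTCTTGGAA in 0.365% of 32851 RefSeq promoters. A match shows letters and no binding. Promoters were at hand for 8 of the 10 genes, and of the others only Tfrc had GGCGCC and none had TTCTTGGAA.

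Depth, recovered from the steps between low RPKM values, was 11412665 to 40568208 mapped read pairs per library (median 18891346), and the estimated reads behind a gene ranged from medians of 59.5 for Hamp2 and 60.5 for Bmp6 to 59378 for Trf. Hepatocyte markers were high in every library, Alb having at least 10209 RPKM. The share of mapped reads falling in annotated transcripts was 46.6% to 66.4% at 1 month and 43.4% to 62.3% at 2 months, against 74.2% to 88.4% at 9 months and 70.8% to 83.7% at 12 months. At 4 months it was 73.3% to 84.7% except in 28Si replicate 2 (56.0%). Comparisons between times move with this share, and a change with time cannot be told apart from a change in libraries. In 5 mice the summed RPKM of 10 acute phase genes reached 51652 (16O, 12 months, replicate 2), 39055 (16O, 4 months, replicate 3), 33042 (28Si, 9 months, replicate 2), 12411 (56Fe, 12 months, replicate 1) and 11931 (control, 4 months, replicate 3), while no other library exceeded 4897. Whole-lobe RNA does not tell a smaller share of a cell type from less RNA per cell.

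Per length, Trf, the plasma iron carrier that hepatocytes secrete, was the most abundant of the 10 mRNAs with a median of 1369 RPKM over the 60 livers (262 to 2939.5). The ferritin chains followed, Ftl1 with a median of 361 RPKM (208 to 541) and Fth1 with 334 RPKM (142 to 611), and their ranges overlapped almost fully. Hamp had 269.9 RPKM (57.5 to 649) and Tfr2 had 135 RPKM (94.7 to 229). These are the genes of a hepatocyte that handles and reports iron. Slc40a1, which Kupffer cells also express, had 41.2 RPKM (20.6 to 79.6) and Hfe 12.8 RPKM (6.50 to 22.04). Hamp2 had 7.44 RPKM (0.181 to 95.4), Tfrc 5.998 RPKM (2.40 to 12.2) and Bmp6 0.979 RPKM (0.482 to 1.86). Hfe, Hamp2 and Tfrc are neighbours whose ranges overlapped, and Bmp6 lay below every Tfrc value. The spread between mice of a group differed most for Hamp2, with a median coefficient of variation of 62.2% over the 20 groups, against 30.9% for Hamp and 7.98% for Tfr2, the steadiest.

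The genes were chosen by their part in iron handling and with 2 measured values in view. These were the lower Tfrc of 56Fe livers at 1 month and the lower Hamp2 of 56Fe livers at 9 months. For these 10 genes every comparison whose contrast holds the 56Fe libraries of those times is therefore given as a description with no test. The same is done for the levels of the same controls for Tfrc at 1 month and Hamp2 at 9 months against other times. Other genes keep their p in those comparisons. In the other comparisons rose and fell are used of a gene only where limma, fitted across all genes tested, gave an adjusted p up to 0.05, on log2(RPKM + 0.1) after scaling. A fold change on this scale understates that of a low gene. Of the 130 results for the 10 genes in the 13 remaining comparisons of an ion with its controls, 2 passed, both lower, namely Tfrc at 1 month and Hamp2 at 9 months after 16O. Both share with the 56Fe descriptions the controls that were in view when the genes were chosen, so their p is not free of that choice. Each result was 1 of 10 genes, where 1.6% and 1.11% of all genes tested passed in those comparisons. In the others the share of all genes that passed was 0.244% and 0.124% for 28Si at 1 and 9 months, 0%, 0% and 0.0181% for 56Fe, 16O and 28Si at 2 months, 0.541%, 0% and 0.382% at 4 months, and 0%, 0.00878% and 0.0176% at 12 months. Of the 130 results, 17 (13.1%) had an unadjusted p under 0.05, against 9.80% of all results over the same 13 comparisons.

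**Figure D1:**
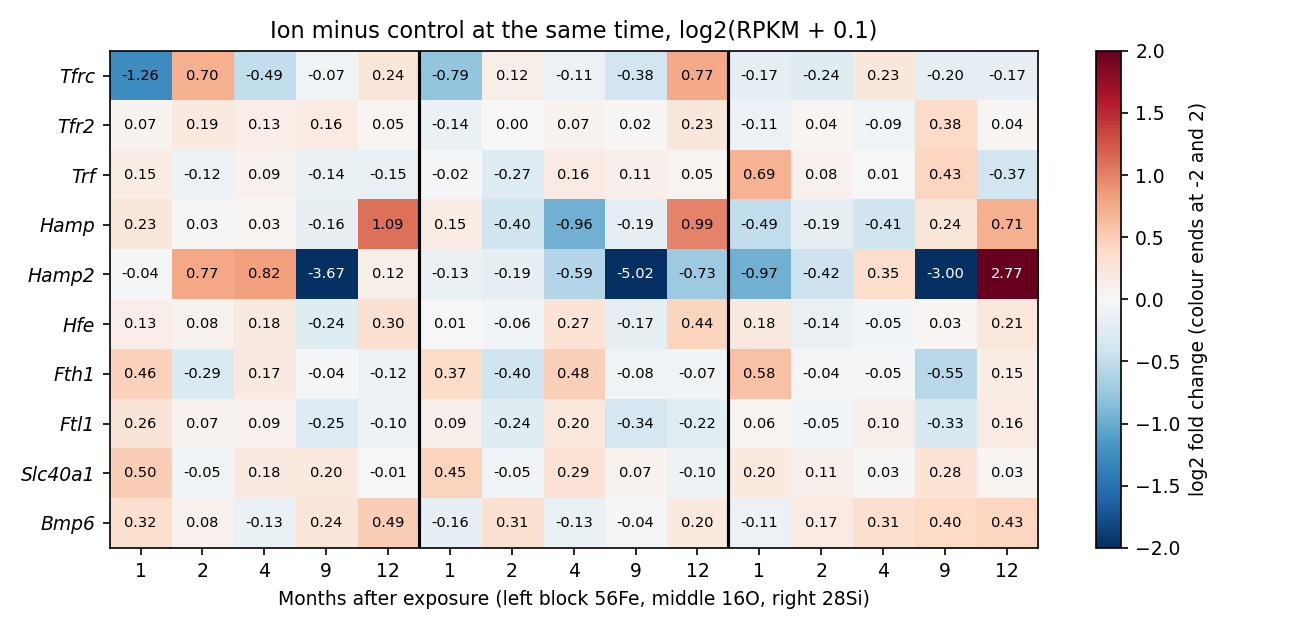
Log2 fold change of each gene (rows) between 3 ion and 3 control livers at each month (columns), in blocks for 56Fe, 16O and 28Si, with the value in each cell. The deepest blue cells are Hamp2 at 9 months (-3.67, -5.02 and -3.0), and Tfrc at 1 month stood at -1.26 after 56Fe and -0.79 after 16O.

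Tfrc (ENSMUSG00000022797, chr16:32608920-32632794), the receptor that carries transferrin into cells, had 10.01, 9.16 and 9.87 RPKM in the 3 control livers at 1 month. The 56Fe livers had 4.43, 3.57 and 3.75 RPKM and the 16O livers 4.81, 6.03 and 5.43 RPKM, all below the controls, while the 28Si livers had 9.92, 6.23 and 11.4 RPKM and overlapped them. As a description, the 56Fe difference was -1.26 on the log2 scale, or 40.5% of the control mean in RPKM. Tfrc fell in 16O livers by 0.79 on the log2 scale (standard error 0.15, adjusted p = 0.0320 by limma), and 28Si differed by -0.17 (standard error 0.18, adjusted p = 0.700). Both tests use the controls of the 56Fe description, so their p is not free of the choice of genes. Groups of 3 and 3 did not overlap in 14.7% of all genes at 1 month after 16O and in 12.6% after 56Fe. The share of mapped reads in transcripts was 46.6%, 47.7% and 62.4% in these controls, 51.7%, 51.8% and 56.7% in the 16O livers and 52.8% to 53.1% in the 56Fe livers, and its part in the difference was not tested. The 16O call was lost without control replicate 1 (adjusted p = 0.114), control replicate 2 (0.102), 16O replicate 1 (0.135) or 16O replicate 3 (0.0848), and its size stayed between -0.91 and -0.69. It was also lost by limma with no filter on low values (adjusted p = 0.0699) and with all 60 libraries in the fit (0.246).

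The ions also differed from each other in contrasts that leave out the controls. The controls and the remaining ion still entered the scaling and the spread of these fits. At 1 month these include the 56Fe livers in view when the genes were chosen, so p there is not free of that choice. Of the 11 comparisons of ion with ion that are tested here, Tfrc passed in that of 16O with 28Si at 1 month, -0.63 (standard error 0.17, adjusted p = 0.0251) by limma over the 12 libraries of that month, and every 16O liver lay below every 28Si liver. This comparison called 13.8% of all genes, and 2 of the 10 genes passed in it, near that share, the other being Trf. The share of all genes without overlap between these 2 ions was not computed. The Tfrc difference missed the threshold without 16O replicate 1 (adjusted p = 0.114), 16O replicate 3 (0.0534), 28Si replicate 1 (0.0653) or 28Si replicate 3 (0.0896). As descriptions, 56Fe minus 28Si was -1.11 and 56Fe minus 16O -0.48 on the log2 scale.

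The 1-month control livers were themselves high in Tfrc. Control livers had 4.30, 5.45 and 4.41 RPKM at 2 months, 8.78, 8.02 and 10.3 at 4 months, 5.47, 9.97 and 3.86 at 9 months and 4.73, 7.79 and 3.94 at 12 months, so values near those of 1 month were also found at 4 months and in 1 mouse at 9 months. As a description, control Tfrc at 1 month minus the mean of the other times was 1.06 on the log2 scale, 0.68 with the highest transcript and 0.67 on RPKM as deposited, in a contrast where 46.6% of all genes passed. At 2 months the 56Fe livers, with 6.34, 7.64 and 9.18 RPKM, lay above all 3 controls, where groups did not overlap in 15.2% of all genes tested. The Tfrc difference of 0.70 (standard error 0.17, adjusted p = 0.192) did not pass by limma on RPKM, and passed (adjusted p = 0.0472) by limma-voom on estimated reads, which called 0.213% of all genes there. Against 28Si at 2 months the 56Fe livers differed by 0.95 (standard error 0.24, adjusted p = 0.0660) on RPKM and by 1.15 (adjusted p = 0.0130) by limma-voom, which called 2.17% of all genes there. At 4 months the 56Fe livers had 7.28, 5.97 and 5.65 RPKM, below all 3 controls, again short of the threshold (-0.49, standard error 0.15, adjusted p = 0.249). Groups did not overlap in 17.2% of all genes tested in that comparison. After 28Si at 4 months the values of 11.96, 12.2 and 5.53 RPKM included the highest of all 60 livers.

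**Figure D2:**
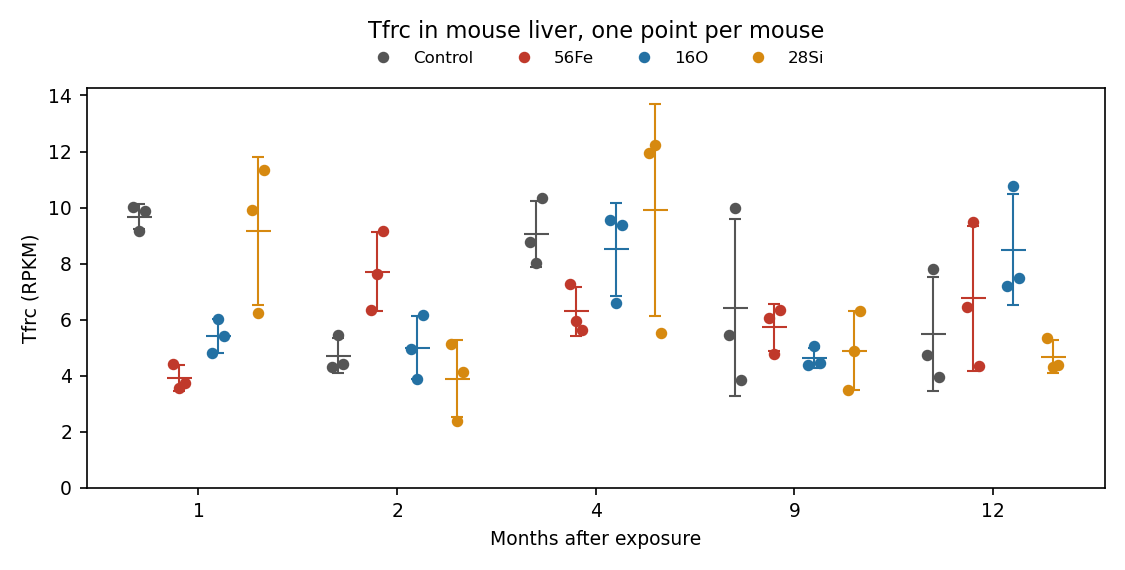
Tfrc in RPKM (vertical axis) by month after exposure (horizontal axis), with a point per mouse and a bar with whiskers for the mean and SD of the 3 mice. At 1 month the 56Fe and 16O points, from 3.57 to 6.03, lie below the control points, from 9.16 to 10.01.

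The full-length Tfrc-201, which carries the 3′ untranslated region with the 4 elements printed above, had 4.43, 4.08 and 4.03 RPKM in controls, 1.77, 1.22 and 1.81 after 56Fe, 1.42, 2.44 and 1.88 after 16O and 5.95, 3.86 and 7.35 after 28Si. Here too the 56Fe and 16O livers lay below every control and every 28Si liver, and the share of all transcripts that do so was not computed. Tfrc-202, a shorter coding form, had 3.14, 2.52 and 3.20 RPKM in controls, 0.962, 1.37 and 0.880 after 56Fe, 1.11, 2.25 and 1.19 after 16O and 2.22, 1.07 and 2.41 after 28Si. With the highest transcript in place of the sum, the 16O difference was larger, -1.05, but did not pass (adjusted p = 0.132). Tfrc-201 made up a median of 44.4% of Tfrc RPKM in libraries of 1 and 2 months and 78.3% later, and 3 retained-intron transcripts made up more of it early (13.3% against 3.61% for Tfrc-205). The whole gene had 162 to 1778 estimated reads per library.

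Trf (ENSMUSG00000032554, chr9:103204001-103230444), the carrier whose cargo Tfrc takes in, passed in the comparison of 16O with 28Si at 1 month. The 16O livers had 262, 278 and 434 RPKM and the 28Si livers 744, 488 and 461 RPKM, with no overlap, and controls had 294, 274 and 442 RPKM, below all 28Si livers. Groups of 28Si and control livers did not overlap in 10.8% of all genes tested at 1 month, and this share was not computed for 16O and 28Si. The difference between the ions was -0.72 (standard error 0.18, adjusted p = 0.0181) by limma, and 28Si against control was 0.69 (standard error 0.16, adjusted p = 0.160). The highest of the 28Si values came from replicate 1, whose share of reads in transcripts was 66.4% against 49.6% and 53.8% in the other two, and without it the difference between the ions was -0.60 (adjusted p = 0.0833). It also missed the threshold without 16O replicate 1 (0.0879), without 16O replicate 2 (0.0721) and with RPKM as deposited (0.0647). No other comparison with an ion moved Trf past the threshold. Tfr2 (ENSMUSG00000029716, chr5:137569840-137587481), the hepatocyte receptor that senses transferrin saturation, was the steadiest of the 10 and passed in none of the 13 comparisons with control (0 with an unadjusted p under 0.05 by limma, 0 past the threshold by limma-voom). Its 16O livers at 1 month, with 99.98, 96.1 and 94.7 RPKM, lay below the controls with 101, 111 and 117 RPKM, a difference of -0.14 (standard error 0.12, adjusted p = 0.701), and its highest value, 229 RPKM, came from the 28Si liver of 9 months with the acute phase transcripts.

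Hamp2 (ENSMUSG00000056978, chr7:30922372-30924681) had 9.08, 54.4 and 30.7 RPKM in control livers at 9 months, including the 2 highest control values of any time. The 56Fe livers had 2.71, 0.488 and 4.53 RPKM, the 16O livers 0.453, 0.945 and 0.712 RPKM and the 28Si livers 7.70, 0.181 and 10.7 RPKM. All 56Fe and 16O livers lay below all controls, and the 28Si livers overlapped them. The 16O values rest on 3, 6 and 5 estimated reads, the control values on 74, 290 and 233. Hamp2 fell after 16O by 5.02 on the log2 scale (standard error 0.54, adjusted p = 0.00299 by limma), in 3 of 3 livers, while limma-voom on estimated reads (-4.96, adjusted p = 0.0738) and a fit of the 12 libraries of that month (-5.01, adjusted p = 0.115) did not call it. In each fit without 1 of the 6 replicates it passed, with adjusted p from 0.000267 to 0.0239. As a description, 56Fe minus control was -3.67, and 28Si minus control was -3.0 (standard error 1.33, adjusted p = 0.438). The 16O and 28Si tests use the controls of the 56Fe description, so their p is not free of the choice of genes. Groups of 3 and 3 did not overlap in 20.3% of all genes tested at 9 months after 16O and in 28.1% after 56Fe.

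Set against the other times, the 16O effect on Hamp2 at 9 months was -4.58 (standard error 1.14, adjusted p = 0.0466) in the fit of all 60 libraries, where 0.518% of genes passed (0% to 0.558% over the 10 tested contrasts of this kind). It was the only 1 of 100 such tested results for the 10 genes to pass, and it was lost in 45 of 70 alternatives. Among these were the fits without control replicate 2 (adjusted p = 0.249) or control replicate 3 (0.129) of 9 months. Others left out a library outside the contrast, such as 28Si replicate 1 of 1 month (0.0501). By limma-voom the adjusted p was 0.392. The 9-month controls of this contrast are those of the 56Fe description, and the 56Fe livers of 9 months entered the scaling and the spread of this fit. In these controls alone, Hamp2 at 9 months minus the mean of the other times was, as a description, 1.68 on the log2 scale, 1.53 by limma-voom and 1.94 on RPKM as deposited. Control livers had 16.9, 16.3 and 18.3 RPKM at 1 month, 9.19, 4.80 and 14.8 at 2 months, 1.24, 7.34 and 1.67 at 4 months and 11.6, 0.951 and 6.99 at 12 months. The 1-month controls were close together, and those of later times lay farther apart. After 28Si at 1 month the livers had 6.70, 10.9 and 10.2 RPKM, below all controls of that month. These values rest on 56, 113 and 92 estimated reads, and the difference did not pass. Groups did not overlap in 10.8% of all genes tested in that comparison. The highest Hamp2 of all, 95.4 RPKM, was in a 28Si liver at 12 months beside 30.1 and 9.45 RPKM in its group, a difference from control of 2.77 (standard error 0.99, adjusted p = 0.613).

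**Figure D3:**
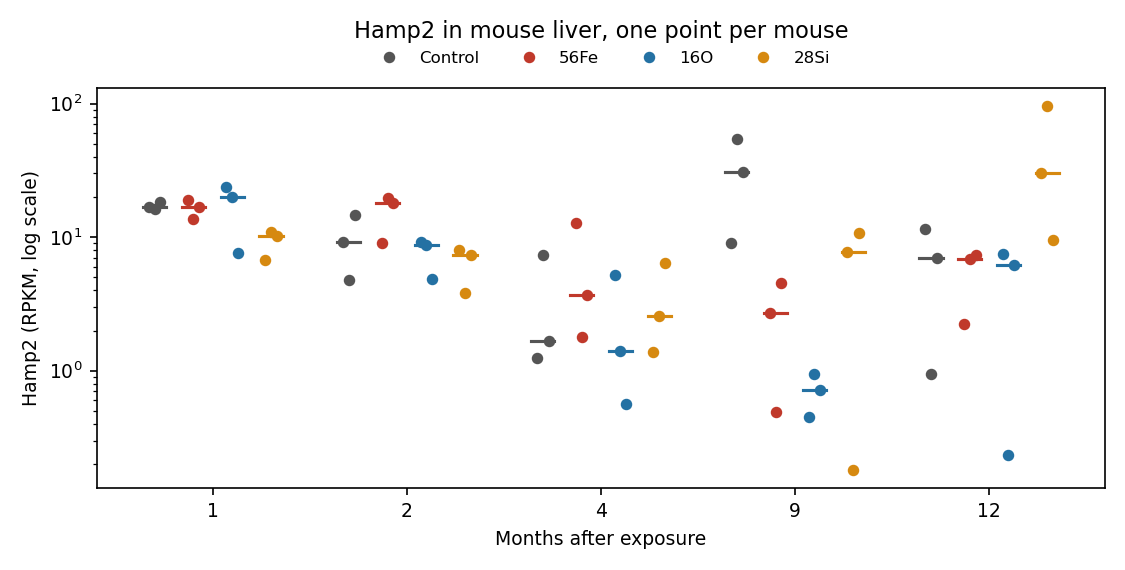
Hamp2 in RPKM on a logarithmic axis (vertical) by month after exposure (horizontal), with a point per mouse and a line at the median of 3. At 9 months the 16O points, from 0.453 to 0.945, lie lowest but for 2 mice, and the control points run from 9.08 to 54.4.

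At 9 months the 10 genes of the acute phase list all had higher means after each ion, with a median log2 fold change of 1.03 after 56Fe, 1.18 after 16O and 1.34 after 28Si, and 3 of them passed by limma after 56Fe and 0 after 16O or 28Si, where 7 and 0 had an unadjusted p under 0.05. Summed over the list, the 16O livers ranged from 2059 to 4813 RPKM, the 56Fe livers from 1812 to 3340 RPKM and the controls from 1315 to 2124 RPKM, and these ranges overlapped. Of the 28Si livers, replicate 2 had 33042 RPKM, while replicates 1 and 3 had 1834 and 1803 RPKM, within the control range. The 3 livers of highest acute phase sum in the series had Hamp2 at 0.235, 0.562 and 0.181 RPKM, on 2, 4 and 1 estimated reads, and their ranks from the lowest of 60 were 2, 5 and 1. Hamp in those livers ranked 49, 2 and 25. These livers were picked out after their values were seen, and the part of the acute phase transcripts in the Hamp2 result was not tested.

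Hamp (ENSMUSG00000050440, chr7:30942368-30944032), which encodes hepcidin itself, passed in no comparison with an ion. At 9 months, where Hamp2 was low, the Hamp values were 177, 168 and 134 RPKM in controls, 128, 214 and 105 after 56Fe, 104, 233 and 118 after 16O and 117, 219 and 199.7 after 28Si, and all groups overlapped. The 16O difference was -0.19 (standard error 0.26, adjusted p = 0.782). Larger differences stood at other times without passing. At 4 months 16O livers had 107, 119.6 and 74.4 RPKM against 107, 189 and 331 in controls, -0.96 (standard error 0.39, adjusted p = 0.808), and at 12 months 56Fe livers had 333, 320.5 and 357 RPKM against 189, 57.5 and 327, 1.09 (standard error 0.53, adjusted p = 1.00). The 12-month controls include the lowest Hamp of the 60 livers, 57.5 RPKM. Of the 13 tested comparisons with control, 1 had an unadjusted p under 0.05 for Hamp by limma, and 0 passed by limma-voom. The transcripts of Hamp and Hamp2 were 410 and 420 bases long and identical in 92.4% of aligned columns, so reads may have been divided between them in mapping. Hamp2 made up 4.88%, 24.4% and 18.7% of the summed hepcidin RPKM in the controls of 9 months and 0.436%, 0.405% and 0.601% in the 16O livers.

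Neither Hfe nor Bmp6, which signal iron status to Hamp, passed in a comparison with control, where 2 and 0 of 13 had an unadjusted p under 0.05 by limma and 0 passed by limma-voom. Hfe (ENSMUSG00000006611, chr13:23702034-23710854), whose loss causes iron overload, had 14.4, 15.9 and 15.5 RPKM after 16O at 9 months, below the controls with 16.5, 17.8 and 16.6 RPKM by a difference of -0.17 (standard error 0.11, adjusted p = 0.483). At 4 months the 16O livers, with 16.4, 17.2 and 17.2 RPKM, lay above the controls with 13.7, 15.3 and 12.6 RPKM (0.27, standard error 0.10, adjusted p = 0.808). At 12 months its 56Fe livers, with 16.03, 15.7 and 15.1 RPKM, lay above the controls with 12.9, 10.9 and 13.1 RPKM (0.30, standard error 0.10, adjusted p = 1.00). Groups did not overlap in 20.3% and 10.7% of all genes tested after 16O at 9 and 4 months, and in 7.94% after 56Fe at 12 months. Bmp6 (ENSMUSG00000039004, chr13:38345107-38500302), the ligand that endothelial cells release, ranged from 0.482 to 1.86 RPKM, on 26 to 135 estimated reads, and its largest difference from control was 0.49 (standard error 0.25, adjusted p = 1.00) after 56Fe at 12 months.

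Genes downstream of the BMP signal and other hepcidin regulators were listed separately, 19 of 21 being in the table and 18 tested at each time. Smad7, which Bmp signalling induces and which damps it, had 4.09, 4.49 and 4.79 RPKM after 56Fe at 1 month against 2.27, 1.90 and 2.99 in controls, with no overlap, as in 12.6% of all genes tested. Smad7 rose by 0.92 (standard error 0.16, adjusted p = 0.0250), the only 1 of 18 to do so, where 1.18% of all genes passed. The call was lost in 7 of 19 alternatives, with a size of 0.48 and adjusted p of 0.226 with the highest transcript, and with adjusted p up to 0.134 when a replicate was left out. It was also higher than after 16O (0.96, standard error 0.16, adjusted p = 0.0328) and 28Si (1.12, standard error 0.16, adjusted p = 0.00115), comparisons in which 0.199% and 9.37% of all genes passed. Smad6, another inhibitor of the same signal, had 2.59, 2.05 and 2.08 RPKM after 56Fe and 1.39, 1.28 and 1.28 RPKM after 28Si (0.77, standard error 0.14, adjusted p = 0.00453). Hamp in the same 56Fe livers, with 304, 486 and 588 RPKM, overlapped the controls with 443, 273 and 475 RPKM, and Id1, a target of BMP signalling, had 1.98, 2.68 and 1.83 RPKM against 1.46, 0.979 and 1.80 (0.63, standard error 0.22, adjusted p = 0.269).

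Atoh8, a transcription factor that acts on Hamp, had 1.71, 1.46 and 1.37 RPKM after 16O at 1 month, below all controls with 2.94, 2.39 and 4.11 RPKM and all 28Si livers with 6.34, 2.49 and 4.40 RPKM. It fell against control by 0.94 on the log2 scale (adjusted p = 0.0317 by limma, up to 0.103 with a replicate left out) and against 28Si by 1.32 (adjusted p = 0.00143). These comparisons called 1.6% and 13.8% of all genes, and the call against control was lost in 9 of 19 alternatives. Groups of 16O and control livers did not overlap in 14.7% of all genes tested, and this share was not computed for 16O and 28Si. After 56Fe Atoh8 was higher than after 28Si at 2 months (1.20, adjusted p = 0.0169) and at 4 months (1.39, adjusted p = 0.0241), where 1.17% and 0.981% of all genes passed. Il6ra, the interleukin 6 receptor, was higher after 16O than after 28Si at 1 month by 0.77 (standard error 0.15, adjusted p = 0.00474), where 13.8% of all genes passed. At 9 months after 56Fe 1 hepcidin regulator fell, Hjv, the BMP co-receptor haemojuvelin (-0.50, standard error 0.11, adjusted p = 0.0462), where 3.65% of all genes passed.

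Neither ferritin chain nor Slc40a1 passed in a comparison with control. Of 13 comparisons each, 5 for Fth1, 1 for Ftl1 and 1 for Slc40a1 had an unadjusted p under 0.05 by limma, and 0 passed by limma-voom. Fth1 (ENSMUSG00000024661, chr19:9980598-9985098), the ferritin chain that oxidises iron, had 142, 153 and 267 RPKM in controls at 1 month, 243, 224 and 265 after 56Fe, 226, 175 and 295 after 16O and 383, 228 and 251 after 28Si, and the third control lay within or above every ion group. That control had 62.4% of mapped reads in transcripts against 46.6% and 47.7% in the other two. The difference after 28Si was 0.58 (standard error 0.18, adjusted p = 0.252). Ftl1 (ENSMUSG00000050708, chr7:45457944-45459884), the light chain, had 528, 521 and 494 RPKM in controls at 9 months and 379, 489 and 383 after 16O, below all controls (-0.34, standard error 0.14, adjusted p = 0.282). Its pseudogene Ftl1-ps1 may share reads with it. Groups did not overlap in 20.3% of all genes tested in that 16O comparison. Slc40a1 (ENSMUSG00000025993, chr1:45908068-45926523), the exporter that hepcidin removes, had 25.8, 22.1 and 31.6 RPKM in controls at 1 month, 37.9, 40.3 and 31.4 after 56Fe, 36.9, 29.6 and 38.6 after 16O and 35.3, 28.3 and 30.5 after 28Si. Its 16O difference at 1 month, 0.45 (standard error 0.13, adjusted p = 0.129), was opposite in sign to that of Tfrc and did not pass. Kupffer cell markers had a median log2 fold change of 0.12 in the same comparison, and 0 of the 10 passed or had an unadjusted p under 0.05 by limma.

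The 10 genes also differed between times. In control mice 14 of 50 results passed when each time was set against the mean of the others, 7 higher and 7 lower, 1 of the higher being Tfrc at 1 month, which is a description only, in fits that called 46.6%, 33.7%, 23.3%, 39% and 8.73% of all genes at 1, 2, 4, 9 and 12 months, so a call here is common. Trf passed at every time. It ranged from 262 to 744 RPKM in the 24 livers of 1 and 2 months and from 1151 to 2939.5 RPKM in the 36 later ones, without overlap in any treatment. In controls it was lower at 1 month (-1.49, standard error 0.18, adjusted p = 3.78e-09) and 2 months (-1.08, standard error 0.18, adjusted p = 5.69e-06) and higher at 4 months (0.75, standard error 0.18, adjusted p = 0.00166), 9 months (0.92, standard error 0.18, adjusted p = 5.02e-05) and 12 months (0.90, standard error 0.18, adjusted p = 0.000901).

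Hamp went the other way. Controls had 443, 273 and 475 RPKM at 1 month and 649, 369 and 618 at 2 months, then 107, 189 and 331 at 4 months, and the 24 early livers of all groups had 233 to 649 RPKM against 57.5 to 455 in the 36 later ones, so that ranges overlapped. Control Hamp was higher at 1 month (1.19, standard error 0.34, adjusted p = 0.00390) and 2 months (1.71, standard error 0.34, adjusted p = 0.000119) and lower at 9 months (-1.07, standard error 0.34, adjusted p = 0.0112) and 12 months (-1.11, standard error 0.34, adjusted p = 0.0321), the last lost without control replicate 2 of 12 months (-0.44, adjusted p = 0.536), replicate 1 of 12 months (0.0777) or replicate 3 of 4 months (0.0521). Fth1 was lower in controls at 1 month (-0.65, standard error 0.15, adjusted p = 0.000592), and Hamp2 was lower at 4 months (-2.35, standard error 0.81, adjusted p = 0.0292). For Hamp2 the mean of the other times holds the 9-month controls in view when the genes were chosen. The Hamp2 call was lost without control replicate 1 (-1.85, adjusted p = 0.198) or replicate 3 (0.146) of 4 months, by limma-voom (0.166), with no filter (0.0662) and with the highest transcript (0.0574). Hfe was lower at 1 month (-0.33, standard error 0.14, adjusted p = 0.0436) and higher at 9 months (0.43, standard error 0.14, adjusted p = 0.0102), and both directions turned when the highest transcript stood for the gene. The Hfe transcripts had unlike courses, Hfe-202 with 2.34, 2.39 and 2.49 RPKM at 1 month and 11.2, 10.7 and 9.27 at 9 months, and the short Hfe-203 with 4.29, 4.38 and 7.75 and 5.37, 7.05 and 7.31 RPKM.

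**Figure D4:**
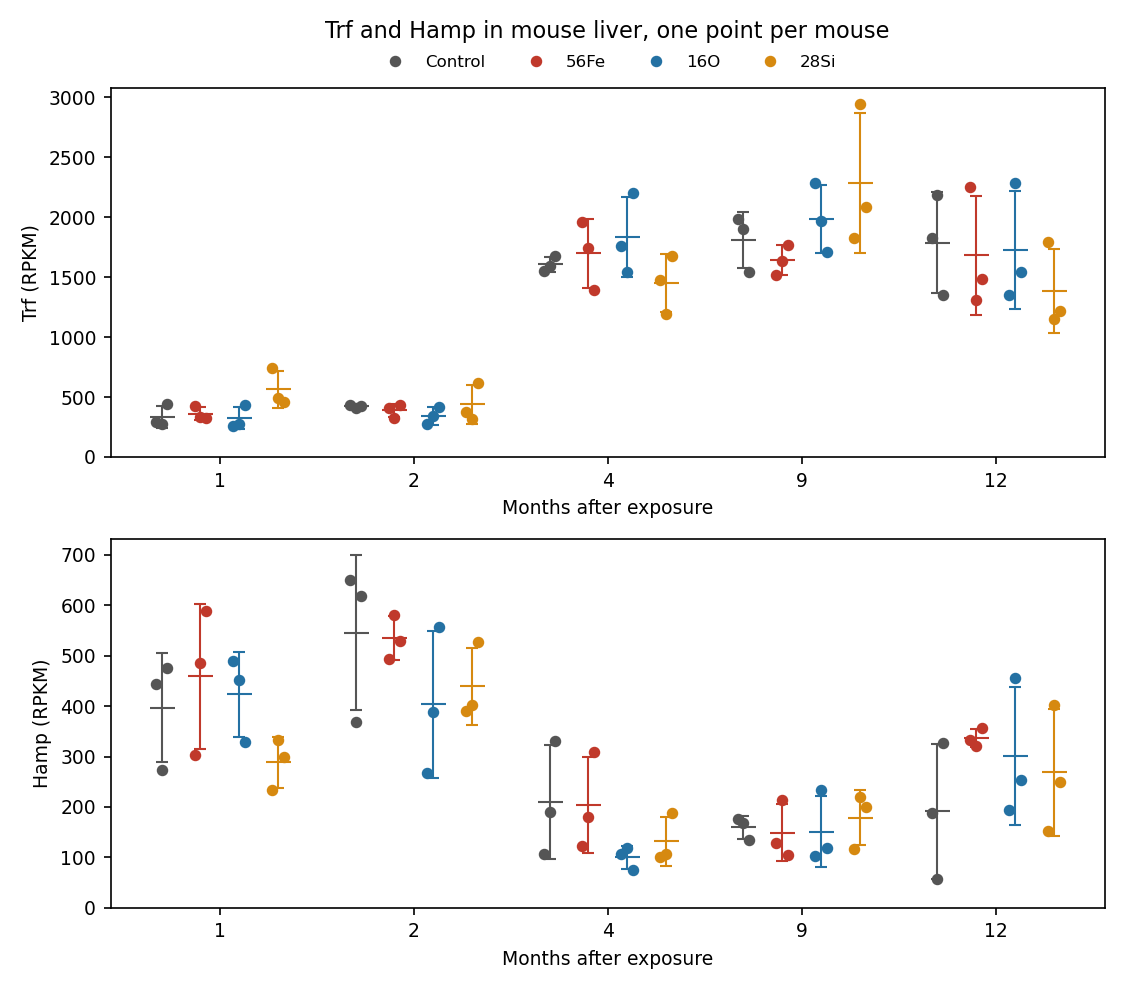
Trf (upper panel) and Hamp (lower panel) in RPKM by month after exposure, with a point per mouse and a bar with whiskers for the mean and SD of 3 mice. Trf steps up between 2 and 4 months in all 4 groups, from at most 744 to at least 1151 RPKM, while Hamp is higher at 1 and 2 months.

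These time courses depend on the scaling. On RPKM as deposited the median control gene moved by -0.38 at 1 month, -0.33 at 2 months, 0.22 at 4 months, 0.27 at 9 months and 0.22 at 12 months on the log2 scale, and 24 of the 50 results passed. Tfrc at 1 month and Hamp2 at 9 months, which are descriptions only, are counted among them. On RPKM as deposited, Trf at 1 month stood at -1.88 and Hamp at 0.80, so their directions were the same with and without scaling. Tfr2 at 1 month was 0.05 after scaling and -0.34 as deposited (adjusted p = 0.0117), and its direction is not settled. Retained-intron transcripts took a larger part of these genes early, Fth1-207 being a median of 16.1% of Fth1 RPKM at 1 and 2 months and 0.780% later, and Slc40a1-208 9.89% and 1.99%. Hamp has 1 annotated transcript of 410 bases.

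Between mice of the same group, 3 of 12 pairs chosen for their roles moved together over the 60 livers, each value being the deviation from its group mean of log2 RPKM. The ferritin chains Fth1 and Ftl1 had Pearson r = 0.66 (adjusted p = 0.00024, permutation within groups) and Spearman rho = 0.68 (adjusted p = 0.00012, for which the unadjusted p is the smallest 100000 permutations can give). They moved together at 1 and 2 months (r = 0.80) and later (r = 0.61), and without the 2 livers farthest on Fth1 r was 0.60. The share of mapped reads in transcripts also differed between mice of a group, from 46.6% to 62.4% among the 1-month controls. Its part in the relation of the ferritin chains was not tested. Hamp moved with Id1 (r = 0.52, adjusted p = 0.016, rho = 0.47, adjusted p = 0.016) and with Smad7 (r = 0.43, adjusted p = 0.024, rho = 0.39, adjusted p = 0.034), both targets of BMP signalling, by the same permutation test. Their r was 0.19 and 0.19 at 1 and 2 months and 0.59 and 0.51 later, and 0.48 and 0.43 without the 2 livers farthest on Hamp. Neither held without the 5 livers of high acute phase sum, where r was 0.39 and 0.31 (adjusted permutation p = 0.16 for both), so these relations rest in part on those livers.

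**Figure D5:**
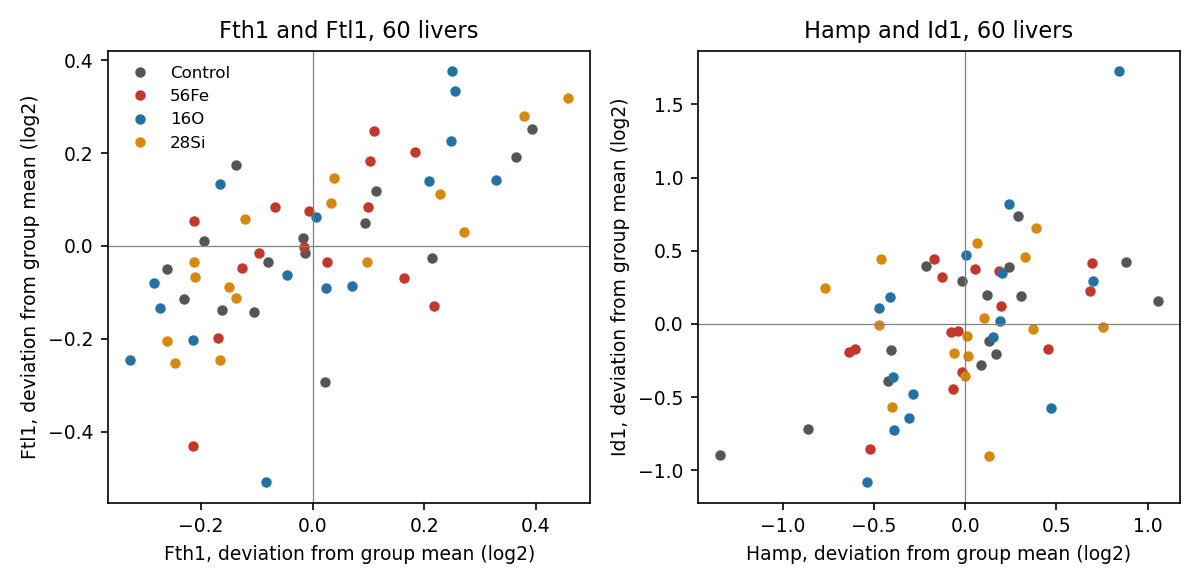
Deviations from the group mean on the log2 scale for Fth1 and Ftl1 (left) and Hamp and Id1 (right), with 1 point for each of 60 livers, coloured by treatment. Pearson r was 0.66 on the left and 0.52 on the right.

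The other 9 pairs did not pass. Hamp and Hamp2 had r = 0.018 (rho = 0.047), and Hamp with Bmp6, whose signal raises it, had r = -0.033 (rho = 0.0087). With the acute phase genes Saa1 and Socs3, a STAT3 target, r was 0.057 and 0.22. Tfrc had r = -0.15 with Hamp and -0.21 with Slc40a1. Of the remaining pairs, Tfr2 with Hfe had 0.23 (0.49, adjusted permutation p = 0.0075, on RPKM as deposited), Slc40a1 with the Kupffer cell marker Clec4f 0.049 and Bmp6 with the endothelial marker Stab2 -0.081. Adjusted permutation p for these 9 ran from 0.56 to 0.92 for r and from 0.70 to 0.96 for rho.

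Over the 20 group means, the genes whose course was most like that of Tfrc among 12731 were Tsku (0.84), Pgs1 (0.82) and Hist1h2ak (0.78) by Pearson r. For Hamp they were Gm39526 (0.96), 4933407K13Rik (0.95) and Gm2115 (0.94), and for Slc40a1 Btbd6 (0.91), Glb1 (0.85) and 1700020N18Rik (0.80). The 3 most like Hamp had medians under 0.5 RPKM. The 20 means share control groups and the step in libraries between 2 and 4 months, and r is given as a description.

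The other iron genes were listed with earlier results of these data known. Of them, 50 of 52 listed were in the table and 47 were tested at each time against control. Over the 15 comparisons 8 results passed, 5 of them in 56Fe livers at 9 months. Scara5, a receptor that takes up ferritin, had 6.13, 5.36 and 5.95 RPKM after 16O at 1 month against 2.25, 2.42 and 3.29 in controls and rose by 1.16 (standard error 0.13, adjusted p = 0.00437). At 9 months it had 5.03, 11.2 and 8.56 RPKM after 56Fe against 2.94, 2.06 and 3.71 (1.44, standard error 0.32, adjusted p = 0.0481), and 4.51, 8.52 and 7.66 after 16O and 4.05, 10.1 and 5.78 after 28Si, again above all controls. Groups did not overlap in 28.1%, 20.3% and 19.5% of all genes tested at 9 months after 56Fe, 16O and 28Si. The 56Fe call was lost in 10 of 19 alternatives (adjusted p up to 0.181). The 16O livers of 1 month, in which Scara5 was higher, had lower Tfrc, but the 2 did not go together elsewhere. Tfrc was also lower in 56Fe livers at 1 month, where Scara5 did not pass. At 9 months, where Scara5 lay above all controls after each ion, Tfrc overlapped the controls after each. No relation of the 2 genes was tested. Pcbp2, which ferries iron to ferritin, rose in 56Fe livers at 9 months (1.08, standard error 0.24, adjusted p = 0.0479), with 42.2, 42.1 and 43.97 RPKM against 15.3, 17.1 and 30.6. Its call was lost in 8 of 19 alternatives (adjusted p up to 0.233). Beside Hjv, 2 genes that the rule for naming did not take passed there, Lrp1, a receptor for haem-haemopexin, which rose (0.81, adjusted p = 0.0379), and Isca2, of iron-sulfur cluster assembly, which fell (-0.45, adjusted p = 0.0392).

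Between 16O and 28Si at 1 month, 11 of 47 iron genes passed, 3 higher and 8 lower after 16O, where 13.8% of all genes passed. In the list of transport and reduction genes 2 rose and 4 fell of 15, among them Steap3, the endosomal reductase that works beside Tfrc, with 3.57, 2.72 and 3.48 RPKM after 16O and 6.17, 5.03 and 6.14 after 28Si (-0.74, standard error 0.15, adjusted p = 0.00733). Scara5 was higher after 16O (0.96, standard error 0.27, adjusted p = 0.0315). Between 56Fe and 28Si at 1 month Slc11a2, an iron importer (-0.50, adjusted p = 0.0475), Acvr2a, an activin and BMP receptor (-0.50, adjusted p = 0.0132), and Steap4, a metalloreductase (-0.49, adjusted p = 0.0249), were lower after 56Fe. That comparison called 9.37% of all genes. Of the acute phase list, Saa1 rose after 16O at 1 month (2.14, standard error 0.42, adjusted p = 0.0353), and Socs3 (1.99), Lrg1 (0.96) and Saa3 (0.86) rose after 56Fe at 9 months (adjusted p = 0.0366, 0.0495 and 0.0435). Of 19 alternatives, the call was lost in 7 for Saa1, 7 for Socs3, 10 for Lrg1 and 12 for Saa3, with adjusted p up to 0.735, 0.159, 0.436 and 0.786, and each was lost with some single replicate left out.

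Against the mean of the 3 ions, 0 of 30 results for the 10 genes passed at 2, 4 and 12 months, where 0%, 0.0344% and 0.00839% of all genes passed by limma, and 0 of the 30 had an unadjusted p under 0.05 or passed by limma-voom. As descriptions, the mean of the ions stood at -0.74 for Tfrc at 1 month and -3.89 for Hamp2 at 9 months. Erythroid markers, which whole liver carries from blood, had a median log2 fold change of -0.92 over 5 tested genes after 16O at 9 months, with Hbb-bt lower (-1.55, standard error 0.29, adjusted p = 0.0428). Sinusoidal endothelial markers, of the cells that make Bmp6, were all 10 lower in that comparison (median -0.37), of which 0 passed by limma and 5 had an unadjusted p under 0.05. Their part in the Hamp2 result was not tested.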

How the data were processed

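RNA of left liver lobes was depleted of ribosomal RNA and sequenced as paired reads. Per the study's methods, the authors trimmed bases from the read starts, used CLC Genomics Workbench to map the reads to GRCm38, annotated by Ensembl 97, and deposited RPKM per transcript, together with mean values that were not used here. The deposited RPKM values already correct for length and mapped reads, so the share of reads outside transcripts lowers them. Transcripts were summed by gene, scaling within each fit used a trimmed mean without weights (30% of log ratios and 5% of levels trimmed), genes with at least 0.5 RPKM in 3 libraries were kept, and log2(RPKM + 0.1) was tested in R 4.3.3 by limma (version 3.58.1) with a trended prior and Benjamini-Hochberg adjustment at 0.05. All 10 genes passed this filter in all 15 fits of ion and control. Ion against control used 6 libraries, ion against ion 12 and time and interaction contrasts 60. The fits were tested on simulated data.

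The genes and lists were chosen with earlier results of these data known. Reads were recovered from the steps of RPKM. Named beside the 10 genes were listed iron and acute phase genes that passed in a comparison with an ion, up to 5 per comparison by size of change, and the 3 genes most like Tfrc, Hamp and Slc40a1 over 20 group means. The marker lists were of hepatocytes, Kupffer cells, sinusoidal endothelium and erythroid cells. Alternatives were median-of-ratios scaling, no scaling, pseudocounts of 0.01 and 1, no filter or 1 RPKM, the highest transcript, limma-voom on estimated reads, a replicate block, near-identical copies added, other sets of libraries in the fit and each replicate left out. Leaving out the 5 livers of highest acute phase sum was chosen after seeing the data. Correlations used 100000 permutations within groups, two-sided. Promoter sequences were those of RefSeq. Some genes of the lists are not reported here.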

Additional observations from a re-analysis of the deposited data

Results flagged for a closer look

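The effects of 2 ions at 1 month differed by a direct test in 2 of the 10 genes. For Tfrc the difference of 16O minus 28Si was -0.63 on the log2 scale (adjusted p = 0.0251), with all 3 of the 16O livers below all 3 of the 28Si livers, and for Trf it was -0.72 (adjusted p = 0.0181), again without overlap. The same comparison called 13.8% of all genes, so 2 of 10 is near that share. The share of all genes without overlap between these ions was not computed. The 1-month controls and 56Fe livers in view when the genes were chosen entered the scaling and the spread of this fit. With no filter the adjusted p by limma was 0.0575 for Tfrc and 0.0547 for Trf, and both calls were lost. With a replicate left out it reached 0.114 for Tfrc and 0.0879 for Trf. For Hamp2, the 16O effect at 9 months differed from the mean of its effects at the other times by -4.58 (adjusted p = 0.0466), where the 3 16O livers of 9 months had 3, 6 and 5 estimated reads and the 9-month controls are those of the 56Fe value known when the genes were chosen. That call was lost in 45 of 70 alternatives.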

How the results depend on the processing

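Of the 10 genes, 2 results passed against control, both with controls in view when the genes were chosen. This count was 1 with no filter, with the highest transcript, with near-identical copies added (where Hamp2 was summed with Hamp), and with 60 or 12 libraries in the fit, and 1 to 4 with a replicate left out, the 4 being without control replicate 3. Between ions it was 2, and 1 on RPKM as deposited, 0 with no filter, 4 by limma-voom and 0 to 5 with a replicate left out. Between control times it was 14, with the description of Tfrc at 1 month counted. It was 24 on RPKM as deposited, with that of Hamp2 at 9 months counted too, and 12 to 15 with a library left out. The single result between ion effects at different times (count 1) became 0 with median-of-ratios scaling, RPKM as deposited, a pseudocount of 0.01, no filter, the highest transcript or limma-voom, and was 0 to 2 with a library left out. The mean of the ions gave 0 in all alternatives run and 0 with each replicate left out. The 8 results of the wider iron list became 1 with no filter, 0 with the highest transcript, 13 with 60 libraries in the fit and 1 to 12 with a replicate left out. Of the correlations, 3 passed, 1 without the 5 livers of highest acute phase sum and 4 on RPKM as deposited, where Tfr2 with Hfe was added. The causes of these changes were not tested.

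Replicate numbers are not tied by the labels to a litter or day, and same-numbered mice deviated together (all 3 correlations over 0.1) in 1 of 15 comparisons. With a replicate block, 3 results against control passed, 2 between ions, 14 between times, 1 between ion effects, 0 for the mean of the ions and 7 in the wider iron list.

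Hfe in controls turned to 0.53 at 1 month and to -0.19 at 9 months with the highest transcript. Of correlations that did not pass, Hamp with Bmp6 became 0.00682 and Bmp6 with Stab2 0.0384 on RPKM as deposited, Hamp with Hamp2 -0.132 and Slc40a1 with Clec4f -0.0106 without the 2 farthest livers, and Hamp with Bmp6 0.177, Hamp with Saa1 -0.328, Hamp with Socs3 -0.166 and Bmp6 with Stab2 0.0842 without the 5 livers. Median estimated reads were 59.5 for Hamp2 and 60.5 for Bmp6, and detection limits were not computed.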

Other observations

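The 5 livers with acute phase sums of 11931 RPKM or more belonged to 5 different groups, of controls and all 3 ions. The 3 highest of them also had Trf at 2281, 2198 and 2939.5 RPKM, the last being the highest Trf of the 60 livers, and Tfr2 at 168, 210.3 and 229 RPKM. Ftl1 in the liver of highest acute phase sum was 208 RPKM, the lowest of the 60, while Hfe there was 22.04 RPKM, the highest. Its Hamp, 455 RPKM, was the highest at 4 months or later. Each of these is the value of 1 mouse, picked out after the values were seen, and no test was made.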
